A study of Mus musculus with 10 samples.

Results

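The genes described here encode molecular chaperones and protein folding enzymes, measured by RNA sequencing in mouse splenic B cells. They were taken by symbol: the heat shock protein families (Hspa to Hspe and Hsp followed by a digit), the J domain proteins (Dnaj), the chaperonin subunits Cct2 to Cct8, the protein disulfide isomerases (Pdia), the FK506-binding prolyl isomerases (Fkbp), the cyclophilins Ppia to Ppih, and Sdf2l1. Of the 6610 genes in the table, 36 met this rule. They were sorted from textbook knowledge into 8 genes of the endoplasmic reticulum (ER), 24 of the cytosol or nucleus and 4 of the mitochondrion. Of these, 6, 20 and 4 genes were among the 4427 that reached 1 TPM in at least 2 libraries and were tested, 30 in all. The 6 members below that limit, Fkbp9, Fkbp10, Dnajc6, Hspb8, Dnajc5b and Fkbp1b, were at most at 1.02 TPM in any library. Hspe1, Dnajb1 and Pdia4, which the rule would also take, are among the family members not analysed here. Pdia3 is the only Pdia gene covered, and Dnaja4, Dnajc5b and Dnajc6 are the only Dnaj genes. Counts and medians below therefore describe a part of these families.

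The cells came from C57BL/6 mice, an inbred laboratory strain, and formed 5 groups of 2 libraries each. Resting cells made up the group naive. Cells given a pulse of antibodies to IgM, the B cell antigen receptor, and to CD40, a co-stimulatory receptor, were collected at 48 h as divided (div12) or undivided (div0) cells, and these 3 groups form Phase I. In Phase II, div12 cells were kept for another 48 h with 0.12 µg/ml of anti-CD40 and then separated by sorting, with cells after a further division in div12_48_d and cells without one in div12_48_u. Libraries were made from 100 ng of total RNA after removal of ribosomal RNA, out of 1000000 cells in Phase I and 500000 in Phase II. Phase, culture time, stimulus and cell input therefore cannot be told apart. The labels describe the Phase I replicates as independent pools of 4 to 5 mice; pooling in Phase II is not given in the sources used here, so p-values measure the spread between these libraries. Levels are TPM, transcript abundances scaled by transcript length and library total so that genes can be set beside each other within a library.

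Chaperones of the Hsp70 and Hsp90 families bind and release unfolded segments of proteins through cycles of ATP hydrolysis, J domain proteins bring clients to Hsp70, and chaperonins enclose a client in a barrel. Protein disulfide isomerases and prolyl isomerases catalyse slow steps of folding. Each compartment has its own set. In the ER, this set is controlled by the unfolded protein response through ATF6, XBP1 and ATF4, and it is known for its growth when B cells become antibody-secreting plasma cells. In the cytosol and the mitochondrion, many of these genes are targets of the heat shock factor HSF1.

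For the members that carry the results below, 3 promoter stretches are shown, because they hold the response elements by which the ER and heat shock programmes are known. They are from RefSeq windows on GRCm38.p6 that run from 250 bases before to 50 bases after the start of a gene, printed 5′ to 3′ on the strand of the gene. The ER stress element was searched as the blocks CCAAT and CCACG with 9 bases between them, ER stress element II as ATTGG and CCACG with 1 base between them, and the heat shock element as 3 alternating GAA and TTC blocks spaced by 2 bases, each on both strands. Capitals mark the blocks.
Hsp90b1, chr10:86705518-86705671, minus strand: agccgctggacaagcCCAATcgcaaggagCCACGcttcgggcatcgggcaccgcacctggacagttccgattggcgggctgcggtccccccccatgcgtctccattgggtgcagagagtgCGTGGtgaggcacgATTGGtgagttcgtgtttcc
Hspa5, chr2:34772010-34772058, plus strand: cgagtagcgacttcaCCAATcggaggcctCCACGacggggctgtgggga
Hspd1, chr1:55088044-55088091, minus strand: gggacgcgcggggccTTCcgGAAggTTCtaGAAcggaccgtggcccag
The Hsp90b1 window held 2 copies of the ER stress element, in opposite orientations, and the Hspa5 window held 1. The Hspd1 window held 2 overlapping matches to the heat shock element. Of all 32851 windows, 39 (0.119%) held the ER stress element, 12 (0.0365%) ER stress element II and 198 (0.603%) the heat shock element. Windows were found for 6 of the 8 ER members, 18 of the 24 cytosolic members and 3 of the 4 mitochondrial members. Apart from the 3 genes shown, none of these windows held any of the 3 elements by the letters searched. A match is a description of the letters and not a tested site.

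B cell identity was checked first. Over the 10 libraries, Cd79a and Cd79b, the signalling chains of the antigen receptor, were between 6235 and 10896 TPM and between 3224 and 5443 TPM, and Cd22 and Pax5 were at or above 736 and 421 TPM. The naive libraries also held RNA of other blood cells. Their summed level of 8 myeloid markers was 587 and 1730 TPM, against 94.0 to 310 TPM in the 8 cultured libraries. The macrophage gene C1qa was listed at 0 in all cultured libraries. Adgre1 of the same list went the other way, at 103 to 204 TPM in Phase II libraries, against 23.4 and 65.6 TPM in naive. Cd68, at 41.6 to 93.1 TPM in cultured libraries, overlapped the naive pair, at 55.4 and 133 TPM. Erythroid markers (5 genes) summed to 2754 and 3257 TPM in naive libraries, against 17.3 to 65.7 TPM in the others. Immediate early genes (12 genes), which respond to cell handling, summed to 11361 and 7607 TPM in naive libraries, against 564 to 2955 TPM elsewhere. The naive replicates also differed from each other more than those of other groups, with 340 genes more than 2-fold apart against 33 to 65. The part of these features in the differences from naive cells was not tested. In bulk RNA, fewer cells of a type and less RNA per cell cannot be told apart.

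Together the 36 members held 1.92 ± 0.03% of all TPM in naive, 3.25 ± 0.07% in div12, 2.61 ± 0.10% in div0, 2.98 ± 0.21% in div12_48_d and 2.19 ± 0.05% in div12_48_u libraries (SD, n = 2 each). Within both phases, the divided cells thus held a larger share than the undivided cells, with no overlap of libraries. Group differences below are log2 fold changes of TPM + 1 with their standard error (SE), from limma fitted to all genes tested, with Benjamini-Hochberg adjusted p-values and a threshold of 0.05.

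**Figure D1:**
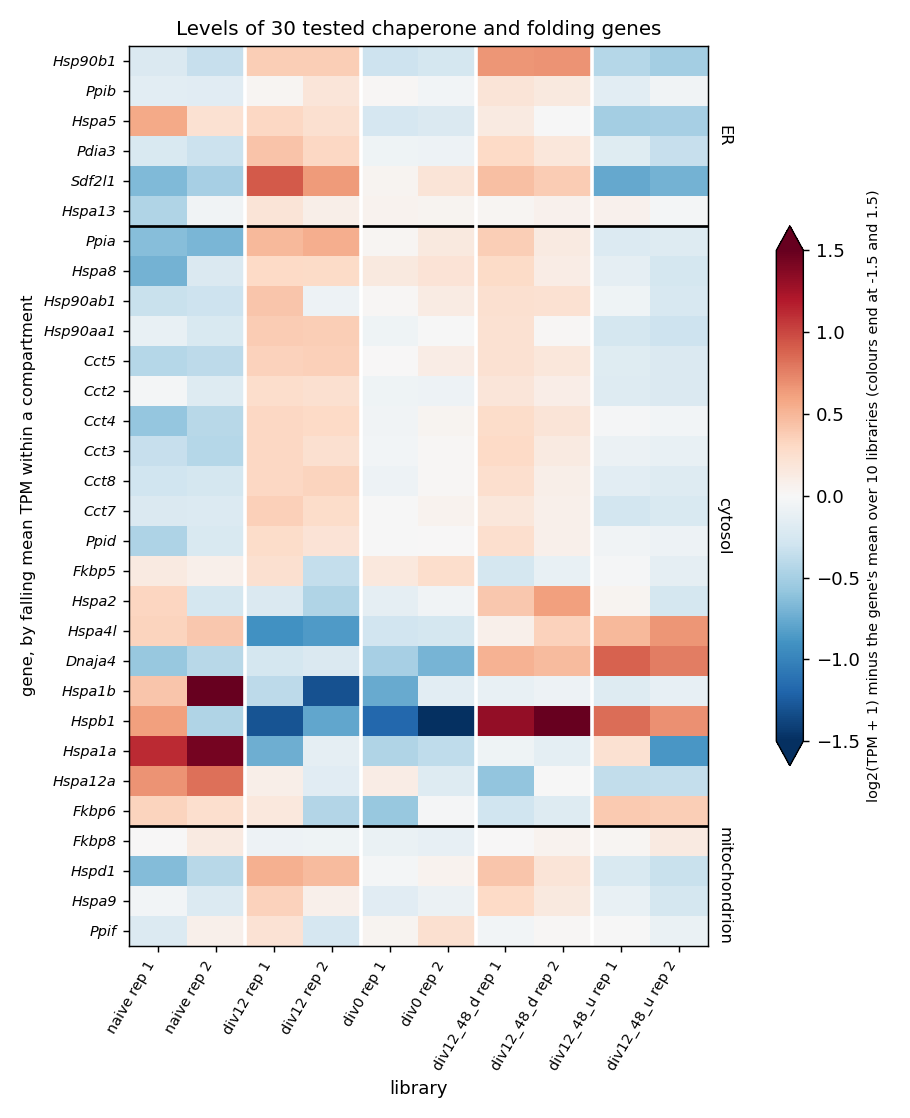
Level of each of the 30 tested members in each of the 10 libraries, as log2(TPM + 1) minus the gene's mean over all libraries, with genes grouped by compartment and libraries by group. Most ER, chaperonin and Hsp90 rows are highest in the div12 and div12_48_d columns, whereas Hspa1a and Hspa1b are highest in naive and Dnaja4 in div12_48_u.

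Genes of the ER set were higher in divided than in undivided cells in both phases. Of the 6 tested, 4 rose in div12 against div0 (Hsp90b1, Sdf2l1, Hspa5 and Pdia3), where 3.68% of all genes rose. In div12_48_d against div12_48_u, 5 rose (the same 4 and Ppib), where 12.2% of all genes rose. None fell in either, against 5.08% and 13.4% of all genes. The summed level of the 8 ER genes was 4277 and 4224 TPM in div12 libraries, against 3094 and 3113 TPM in div0 libraries. In Phase II it was 4471 and 4306 TPM in div12_48_d, against 2714 and 2685 TPM in div12_48_u. In naive libraries it was 3474 and 3115 TPM.

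Hsp90b1 (chromosome 10, 86690841 to 86705444) encodes GRP94, the Hsp90 of the ER, which folds integrins and Toll-like receptors in B cells. It was at 966 and 882 TPM in naive, 1451 and 1445 TPM in div12, 903 and 933 TPM in div0, 1777 and 1787 TPM in div12_48_d and 829 and 784 TPM in div12_48_u libraries. The 3 groups of naive and undivided cells lay close together, and both divided groups lay above them without overlap. Its log2 change was 0.66 ± 0.07 (SE) in div12 against div0 (adjusted p = 0.011 by limma), and 1.14 ± 0.07 in div12_48_d against div12_48_u (adjusted p = 0.000315), a 2.21-fold difference. It was also the only ER gene to rise in div12_48_d against div12, by 0.30 ± 0.07 (adjusted p = 0.025 by limma). That call was lost when any library of div12, div12_48_d or div0 was left out, with the change at 0.30 in each. Median-ratio scaling (0.18, adjusted p = 0.21 by limma), no trend of variance and a fit to the compared groups alone also lost it.

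Sdf2l1 (chromosome 16, 17130138 to 17132383), an ER protein that works with the J domain partner of Hspa5 and is a known target of the unfolded protein response, had the widest range among ER members. Its level was 71.9 and 81.1 TPM in naive, 218 and 179 TPM in div12, 118 and 131 TPM in div0, 157 and 150 TPM in div12_48_d and 67.1 and 69.7 TPM in div12_48_u libraries. None of the groups overlapped each other. It rose in div12 against naive (log2 change 1.36 ± 0.12, adjusted p = 3.0e-05 by limma), in div12 against div0 (0.66 ± 0.12, adjusted p = 0.020) and in div12_48_d against div12_48_u (1.15 ± 0.12, adjusted p = 0.000739). In div12_48_u against div12 it fell by 1.52 ± 0.12 on the log2 scale, the largest fall of any member in that comparison.

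Hspa5 (chromosome 2, 34772090 to 34776529) encodes BiP, the Hsp70 of the ER lumen that binds nascent immunoglobulin heavy chains. Its order of groups differed from that of Hsp90b1. It was at 1215 and 958 TPM in naive, 1012 and 962 TPM in div12, 689 and 702 TPM in div0, 896 and 815 TPM in div12_48_d and 572 and 579 TPM in div12_48_u libraries. Levels in div12 lay inside the range of the naive pair. Hspa5 fell in div0 against naive (log2 change -0.63 ± 0.11, adjusted p = 0.0018 by limma) and was not called in div12 against naive (-0.13 ± 0.11, adjusted p = 0.32). It rose in div12 against div0 (0.50 ± 0.11, adjusted p = 0.035) and in div12_48_d against div12_48_u (0.57 ± 0.11, adjusted p = 0.0081). With its most abundant transcript alone, both calls were lost (0.54 in each, adjusted p = 0.12 and 0.081 by limma). These rises were called in 12 and 19 of the 21 other settings tried. Read as a ratio within a library, Hsp90b1 TPM was 0.858 ± 0.089 times Hspa5 TPM in naive, 1.47 ± 0.05 times in div12, 1.32 ± 0.01 times in div0, 2.09 ± 0.15 times in div12_48_d and 1.40 ± 0.07 times in div12_48_u cells (SD, n = 2 each).

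Pdia3 (chromosome 2, 121413902 to 121438687) encodes ERp57, the disulfide isomerase that works with calnexin and calreticulin on glycoproteins and in loading MHC class I. Its level was 695 and 644 TPM in div12, against 494 and 490 TPM in div0, and 640 and 583 TPM in div12_48_d, against 458 and 408 TPM in div12_48_u libraries. The divided and undivided pairs did not overlap in either phase (log2 change 0.44 ± 0.09, adjusted p = 0.027, and 0.50 ± 0.09, adjusted p = 0.0057, by limma). Ppib, the ER cyclophilin, moved least among the called ER genes. It was at 977 and 946 TPM in div12_48_d, against 763 and 821 TPM in div12_48_u libraries (0.28 ± 0.08, adjusted p = 0.030), and at 874 and 969 TPM in div12, against 866 and 832 TPM in div0 libraries, where it was not called (0.12 ± 0.08, adjusted p = 0.37). Hspa13, a microsomal Hsp70 relative, was between 16.9 and 27.0 TPM in all libraries and was called in div12 against naive only (0.40 ± 0.14, adjusted p = 0.038), a call that did not hold when naive replicate 1 was left out (0.20, adjusted p = 0.166), without either library of div12, div0 or div12_48_d (adjusted p up to 0.144), and under 4 other settings.

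**Figure D2:**
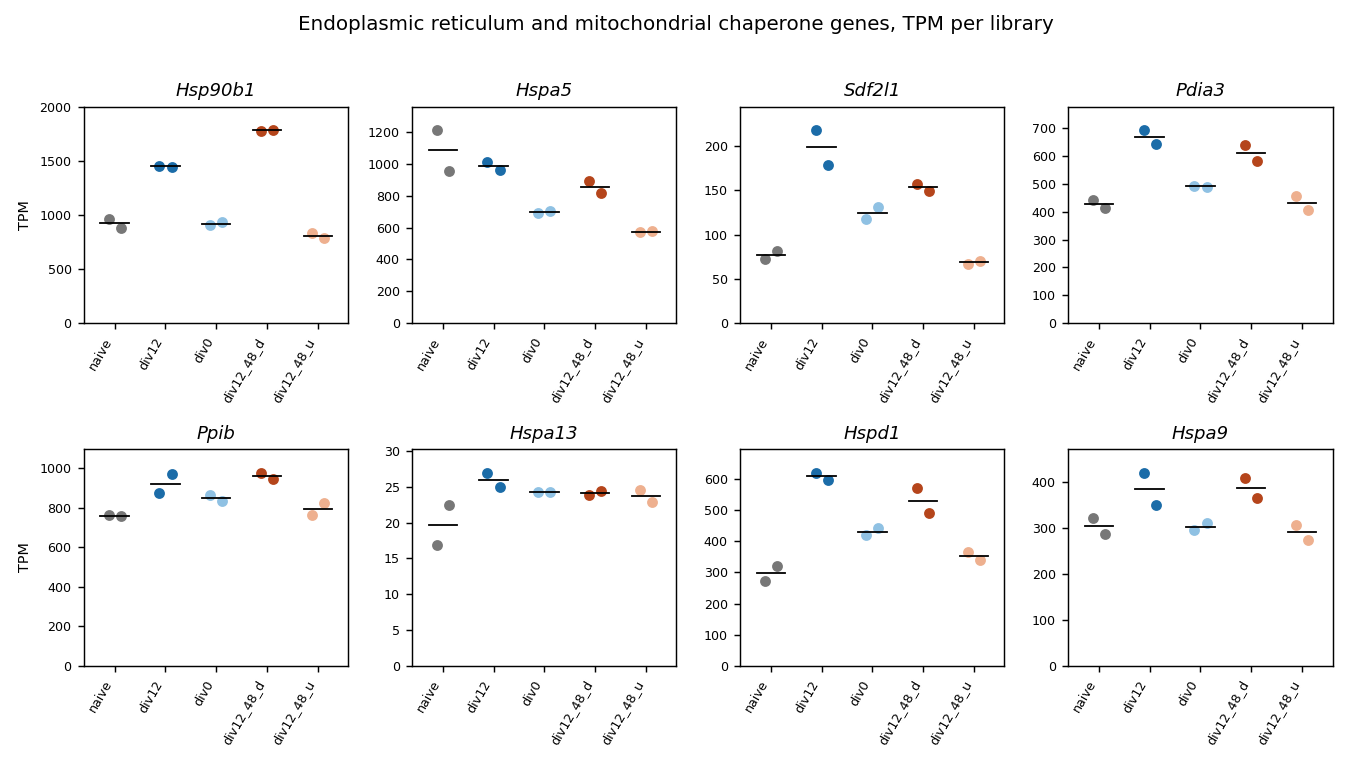
TPM of ER and mitochondrial members in each library, with 1 point per library and a bar at the mean of the 2 libraries of a group, on axes that start at 0. Hsp90b1 reaches 1777 and 1787 TPM in div12_48_d, above all other groups, whereas Hspa5 is highest in naive replicate 1, at 1215 TPM.

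Of 5 plasma cell markers, Jchain and Xbp1 rose beside the ER genes in Phase II. The summed level of Sdc1, Prdm1, Jchain, Xbp1 and Irf4 (5 of 5 listed) was 971 and 1191 TPM in div12_48_d, against 458 and 480 TPM in div12_48_u libraries, with most of the difference in Jchain. Jchain, the joining chain of secreted IgM, was at 379 and 464 TPM in div12_48_d, against 24.5 and 31.1 TPM in div12_48_u, and rose (log2 change 3.88 ± 0.43, adjusted p = 0.0010 by limma). Xbp1, a transcription factor of both the unfolded protein response and plasma cells, was at 200 and 246 TPM in div12_48_d, against 118 and 116 TPM in div12_48_u, and rose by 0.92 ± 0.12 (adjusted p = 0.0020). Sdc1, Prdm1 and Irf4 were not called, and Sdc1, the surface marker CD138, was at 7.05 and 19.5 TPM in div12_48_d, against 10.3 and 29.5 TPM in div12_48_u. Cd5 (70.4 and 74.7 TPM, against 28.6 and 28.5 TPM) was the called gene of the T cell list, whose Cd3e was at or below 0.34 TPM in all 4 libraries. The part of plasma cell RNA in the Phase II difference of the ER genes was not tested. In Phase I, the 5 plasma cell genes summed to 424 and 389 TPM in div12, against 459 and 465 TPM in div0, and none was called between these groups. In naive libraries they summed to 2041 and 872 TPM. Most of the replicate 1 sum was Irf4, at 1682 and 308 TPM, whereas Jchain was at 147 and 331 TPM. Against naive, 5 of 5 fell in div12 and 4 of 5 in div0, where 47.5% and 39.6% of all genes fell. The part of plasma cell RNA in the differences from naive cells was not tested.

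Members of the cytosol held most of the RNA. Of the 20 tested, 7 rose and 1 fell in div12 against div0, where 3.68% of all genes rose and 5.08% fell. In div12_48_d against div12_48_u, 8 rose and 0 fell, where 12.2% of all genes rose and 13.4% fell. Ppia (chromosome 11, 6415867 to 6419817), which encodes cyclophilin A, the prolyl isomerase bound by cyclosporin, was by far the most abundant member. It was at 6003 and 5794 TPM in naive, 13021 and 13600 TPM in div12, 9528 and 10334 TPM in div0, 12008 and 10234 TPM in div12_48_d and 8060 and 8132 TPM in div12_48_u libraries. Naive cells had the lowest level, and in each phase the divided pair lay above the undivided pair. Its log2 change was 1.17 ± 0.09 in div12 against naive (adjusted p = 2.2e-05 by limma), 0.42 ± 0.09 in div12 against div0 (adjusted p = 0.036) and 0.45 ± 0.09 in div12_48_d against div12_48_u (adjusted p = 0.011). Ppia alone made up 30.7 ± 1.3% of the members' summed TPM in naive and 40.9 ± 2.1% in div12 libraries (SD, n = 2 each). Ppia, Hspa8, Hsp90ab1 and Hspd1 have processed pseudogene copies, and how reads of 50 bp were assigned among such copies is not given in the sources used here.

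Cct2, Cct3, Cct4, Cct5, Cct7 and Cct8 encode 6 subunits of TRiC, the ring-shaped chaperonin that folds actin and tubulin. Their summed level was 2547 and 2525 TPM in naive, 3929 and 3871 TPM in div12, 3071 and 3221 TPM in div0, 3715 and 3465 TPM in div12_48_d and 2852 and 2820 TPM in div12_48_u libraries, so that both divided groups lay above the other 3. The subunits moved as a narrow band. In div12 against div0, 5 of the 6 rose (all but Cct3, adjusted p = 0.060), with log2 changes of all 6 between 0.28 and 0.36. Of the 21 other settings tried, Cct4 and Cct7 were called there in 6, Cct2 in 8, and Cct5 and Cct8 in 11. In div12_48_d against div12_48_u, all 6 rose, by 0.26 to 0.40, with Cct4 called in 8 of the 21 other settings tried. In div12_48_u against div12, all 6 fell, with log2 changes of -0.57 to -0.33. Over all genes, 3.68% and 12.2% rose in the division contrasts of Phase I and Phase II, and 13.6% fell in div12_48_u against div12. For Cct5, the most abundant, the level was 922 and 929 TPM in div12, against 725 and 779 TPM in div0 (0.30 ± 0.07, adjusted p = 0.036 by limma), and 846 and 812 TPM in div12_48_d, against 637 and 623 TPM in div12_48_u (0.40 ± 0.07, adjusted p = 0.0051). Cct2 alone did not rise in div0 against naive (0.04 ± 0.08, adjusted p = 0.69), where the other 5 did.

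The paired cytosolic Hsp90 genes differed in what was called. Hsp90aa1, the inducible form, was at 1028 and 1012 TPM in div12, against 751 and 786 TPM in div0, and at 920 and 796 TPM in div12_48_d, against 652 and 633 TPM in div12_48_u. It rose in both phases (log2 change 0.41 ± 0.09, adjusted p = 0.031, and 0.41 ± 0.09, adjusted p = 0.011, by limma), and the pairs did not overlap. Hsp90ab1, the constitutive form, was more abundant, at 4287 and 3051 TPM in div12, against 3247 and 3498 TPM in div0, and at 3775 and 3752 TPM in div12_48_d, against 3065 and 2721 TPM in div12_48_u. The div12 pair spanned the div0 pair, and neither division contrast was called (0.10 ± 0.14, adjusted p = 0.70, and 0.38 ± 0.14, adjusted p = 0.087). Hspa8, the constitutive Hsp70 (HSC70), was at 2286 and 3221 TPM in naive, 4586 and 4565 TPM in div12, 4139 and 4299 TPM in div0, 4558 and 4026 TPM in div12_48_d and 3391 and 3118 TPM in div12_48_u libraries. It rose in div12 and div0 against naive (0.75 ± 0.15 and 0.64 ± 0.15, adjusted p = 0.0020 and 0.0069) and was not called between divided and undivided cells of either phase. Ppid, a cyclophilin that partners Hsp90, was between 98.9 and 166 TPM and rose against naive in div12 and div0 (0.59 ± 0.10 and 0.35 ± 0.10, adjusted p = 0.0011 and 0.020). The div0 call of Ppid was lost when naive replicate 1 was left out (0.23, adjusted p = 0.084) and without either div0 library, with the compared groups alone, or with its most abundant transcript (adjusted p up to 0.235).

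A second set of cytosolic genes, all at low levels, followed other orders. Hspa1a and Hspa1b encode the heat-inducible Hsp70 and are near-identical copies, so that reads may be split between them in ways the table does not show. Hspa1a was at 6.53 and 8.37 TPM in naive libraries and between 0.893 and 3.06 TPM in the 8 cultured libraries. Hspa1b was at 4.12 and 23.8 TPM in naive libraries and between 0.548 and 2.64 TPM in the others. Their sum was 10.6 and 32.2 TPM in naive and 2.72 to 5.40 TPM elsewhere, a gap without overlap, though the naive replicates themselves stood far apart. Hspa1a fell in div0 against naive (log2 change -1.69 ± 0.35, adjusted p = 0.0043 by limma) and in div12 against naive (-1.71 ± 0.35, adjusted p = 0.0026). For Hspa1b the change in div0 against naive was -2.02 ± 0.63 (adjusted p = 0.026 by limma). The call was lost without naive replicate 2 (-0.88) and without div0 replicate 1 (-1.72) or 2 (-2.32). Quantile normalization (-1.40, adjusted p = 0.12 by limma) and a fit to the compared groups alone (adjusted p = 0.12) also lost it.

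Hspa4l is an Hsp110-type partner of Hsp70. It was at 24.8 and 26.0 TPM in naive, 9.91 and 10.3 TPM in div12, 15.8 and 16.1 TPM in div0, 20.6 and 25.1 TPM in div12_48_d and 27.8 and 31.3 TPM in div12_48_u libraries. The lowest level was that of div12, and it was the only member to fall in div12 against div0 (log2 change -0.61 ± 0.13, adjusted p = 0.036 by limma). It rose in both Phase II groups against div12, by 1.09 ± 0.13 in div12_48_d (adjusted p = 0.0017) and by 1.46 ± 0.13 in div12_48_u (adjusted p = 0.000202). These 2 comparisons share the div12 libraries. Between div12_48_d and div12_48_u it was not called (-0.36 ± 0.13, adjusted p = 0.081).

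Hspb1, the small heat shock protein HSP27, was at 4.49 and 1.63 TPM in naive, 0.463 and 1.09 TPM in div12, 0.586 and 0.199 TPM in div0, 7.99 and 11.7 TPM in div12_48_d and 5.42 and 4.76 TPM in div12_48_u libraries. All 4 Phase II libraries lay above all 6 Phase I libraries. It fell in div12 against naive (log2 change -1.12 ± 0.36, adjusted p = 0.023 by limma), a call lost when replicate 1 of either group was left out, with a change of -0.59 for naive (adjusted p = 0.132) and of -0.87 for div12 (adjusted p = 0.133). That call was also lost with quantile normalization (-0.41, adjusted p = 0.41), median-ratio scaling, a pseudocount of 5 or the compared groups alone. It rose in div12_48_d and in div12_48_u against div12 (2.61 ± 0.36, adjusted p = 0.0029, and 1.80 ± 0.36, adjusted p = 0.0052). Dnaja4, a J domain partner of Hsp70, showed the same separation of phases at 6.94 and 6.67 TPM in div12_48_d and 9.21 and 8.41 TPM in div12_48_u, against 2.40 to 3.76 TPM in Phase I. It rose by 0.74 ± 0.15 in div12_48_d (adjusted p = 0.016) and by 1.06 ± 0.15 in div12_48_u (adjusted p = 0.0013) against div12. The div12_48_d call was lost without any single library of div12 or div12_48_d (adjusted p up to 0.088) and with quantile normalization (0.44, adjusted p = 0.072). Hspa2, an Hsp70 best known from the testis, was at 28.6 and 33.4 TPM in div12_48_d and between 15.3 and 27.1 TPM in the other libraries. It rose in div12_48_d against div12 (0.85 ± 0.21, adjusted p = 0.029 by limma). This call was lost without any single library of div12, div12_48_d or div0, with changes of 0.73 to 0.97. Quantile normalization (0.60, adjusted p = 0.13 by limma) and its most abundant transcript (0.85, adjusted p = 0.11) also lost it, as did no filter and the compared groups alone. Fkbp5, a regulator of the glucocorticoid receptor, was between 26.4 and 41.2 TPM. Neither Fkbp5 nor Fkbp6 (0.420 to 1.77 TPM) was called in any comparison of the main fit to all 10 libraries. Hspa12a fell against naive in div12 and div0 (-0.79 ± 0.23 in each, adjusted p = 0.015 and 0.019), a direction that turned with quantile normalization (0.053 and 0.056, adjusted p = 0.85 in each), at levels of 4.95 and 5.59 TPM in naive and 1.47 to 3.03 TPM elsewhere.

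**Figure D3:**
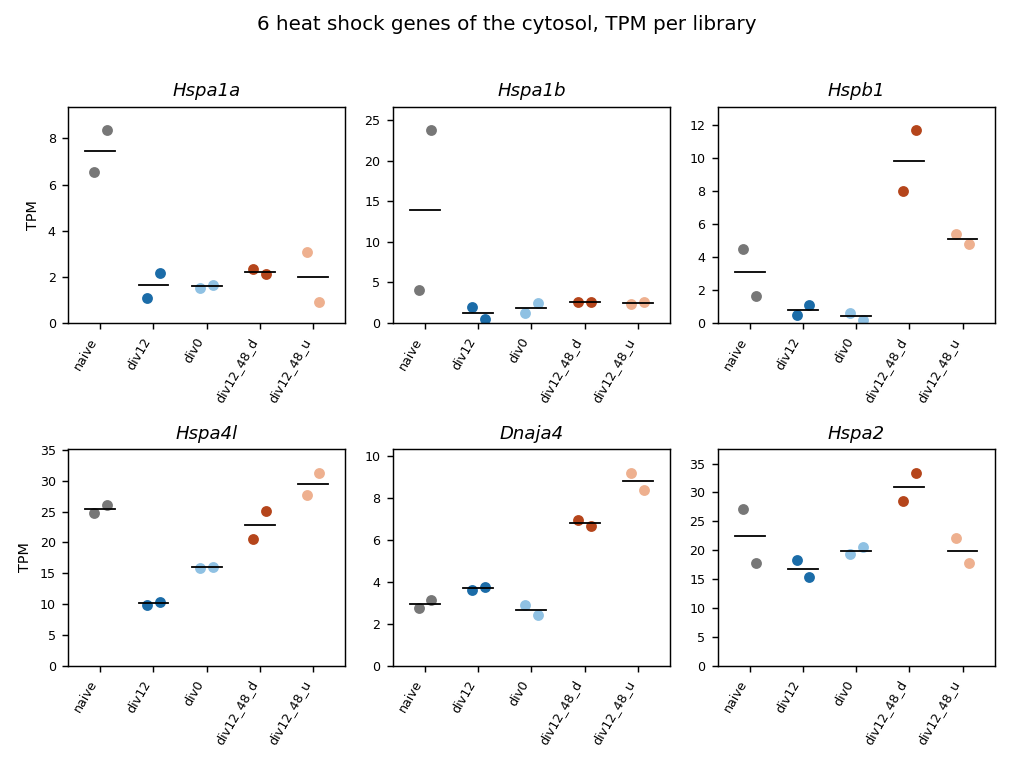
TPM of 6 heat shock genes of the cytosol in each library, with 1 point per library and a bar at the mean of the group. Hspa1a and Hspa1b are highest in naive, Hspa4l is lowest in div12, and Hspb1 and Dnaja4 are higher in the 4 Phase II libraries than in the 6 of Phase I.

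Among mitochondrial members, the matrix chaperones moved and the other genes did not pass the test. Hspd1 (chromosome 1, 55077833 to 55088243) encodes HSP60, the chaperonin of the matrix, and is the gene whose promoter stretch above holds the heat shock element. It was at 274 and 320 TPM in naive, 621 and 597 TPM in div12, 419 and 444 TPM in div0, 570 and 490 TPM in div12_48_d and 365 and 340 TPM in div12_48_u libraries. Divided pairs lay above undivided pairs in each phase, and all cultured libraries lay above the naive pair. Its log2 change was 1.04 ± 0.10 in div12 against naive (adjusted p = 6.2e-05 by limma), 0.50 ± 0.10 in div12 against div0 (adjusted p = 0.031) and 0.59 ± 0.10 in div12_48_d against div12_48_u (adjusted p = 0.0060). Hspa9, or mortalin, the Hsp70 of the matrix, was at 421 and 350 TPM in div12, against 295 and 310 TPM in div0, where it was not called (0.34 ± 0.11, adjusted p = 0.096). It was at 408 and 365 TPM in div12_48_d, against 307 and 275 TPM in div12_48_u, and rose (0.41 ± 0.11, adjusted p = 0.032). Ppif, cyclophilin D of the permeability transition pore, was between 84.2 and 118 TPM, and Fkbp8, an outer membrane protein that binds BCL2, was between 459 and 553 TPM. Neither was called in any comparison of the main fit. The summed level of the 4 genes was 1633 and 1510 TPM in div12, against 1287 and 1331 TPM in div0, and 1580 and 1477 TPM in div12_48_d, against 1284 and 1262 TPM in div12_48_u.

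Each comparison was then read against all genes tested. For the first division, div12 against div0, 12 of 30 members rose, against a background of 3.68% of genes, and 1 fell, against 5.08%. The median log2 change was 0.29 over members, with 0.47 in the ER, 0.26 in the cytosol and 0.19 in mitochondria, against -0.07 over all genes. The calls rest on small differences between 2 libraries each: without either div0 library or div12 replicate 2, 0 of 30 members were called, and without div12 replicate 1, 1 was called. The loss was one of all genes: without either div0 library 0 of 4427 genes were called, without div12 replicate 2, 1 was called higher and 3 lower, and without div12 replicate 1, 28 higher and 91 lower. The log2 change of Hsp90b1 in these 3 settings with no member called was 0.63, 0.68 and 0.66, with adjusted p between 0.057 and 0.147.

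For the second division, div12_48_d against div12_48_u, 15 of 30 members rose, against a background of 12.2%, and 0 fell, against 13.4%. Their median log2 change was 0.34, with 0.53 in the ER, 0.33 in the cytosol and 0.23 in mitochondria, against -0.08 over all genes. Without div12_48_d replicate 1, 3 members were called (Cct5, Hsp90b1 and Sdf2l1), and without div12_48_u replicate 1 or 2, 7 and 8 were called. Over all genes, 202, 354 and 278 were then called higher, against 540 with all libraries. Hsp90b1 and Sdf2l1 were called under all 21 settings tried (adjusted p up to 0.023 for each). Ppib and Hspa9 lost their calls without any single library of div12_48_d, div12_48_u or div0 (adjusted p up to 0.162 for Ppib and up to 0.194 for Hspa9), and Cct4 without any single library of these groups or of div12 (adjusted p up to 0.205).

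The division contrasts of Phase I and Phase II share no library, although Phase II cells were grown from div12 cells. Both come from 1 fit of all 10 libraries with a shared estimate of the spread, so their calls are not independent. With the compared groups alone, 5 and 8 members rose, beside 106 and 387 of all genes. Of the members that rose in div12 against div0, 12 of 12 (100%) also rose in div12_48_d against div12_48_u, and these were 80% of the 15 that rose there. Over all genes tested, 141 of the 163 genes that rose in the first (86.5%) also rose in the second, 26.1% of the 540 that rose there, so a call shared with Phase II was common among all genes higher in div12. The 12 members were Cct2, Cct4, Cct5, Cct7, Cct8, Hsp90aa1, Hsp90b1, Hspa5, Hspd1, Pdia3, Ppia and Sdf2l1. Cct3, Hspa9 and Ppib were called in Phase II and not in Phase I. The test of the difference between both division contrasts called 0 members and 0 of 4427 genes in either direction (0% of genes higher and 0% lower). At an unadjusted p under 0.05, 4 members differed (Dnaja4, Hsp90b1, Hspa2 and Sdf2l1), or 13.3% of 30, against 9.89% of all genes. For Hsp90b1 the Phase II effect was larger by 0.49 ± 0.10 on the log2 scale (adjusted p = 0.11 by limma), and for Sdf2l1 by 0.49 ± 0.16 (adjusted p = 0.33).

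**Figure D4:**
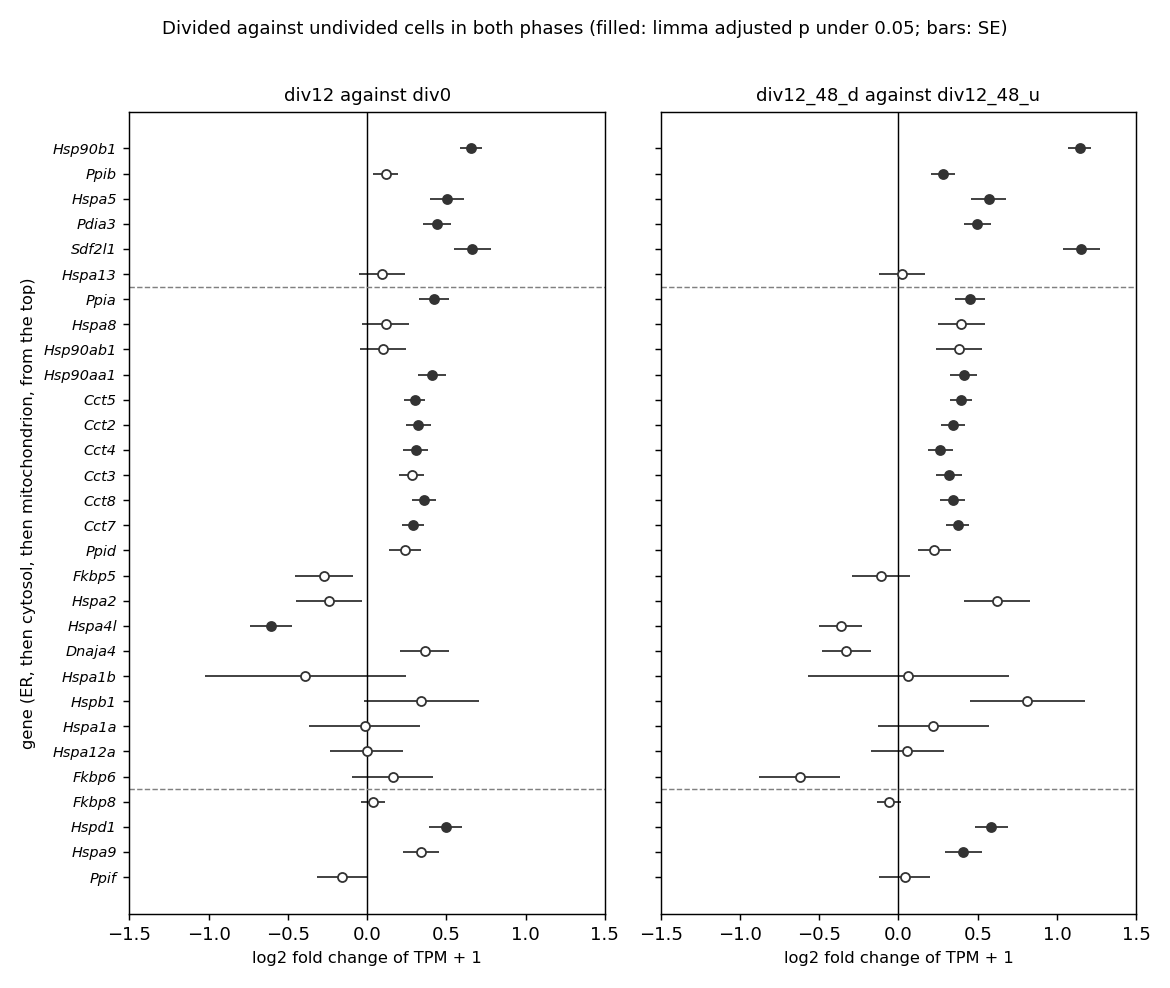
Log2 fold change of TPM + 1 (horizontal axis) of each of the 30 tested members in div12 against div0 (left) and in div12_48_d against div12_48_u (right), with the SE as bars, filled points for an adjusted p under 0.05 and dashed lines between compartments. Hsp90b1 and Sdf2l1 lie farthest to the right in Phase II, at 1.14 and 1.15, and the Cct subunits lie between 0.26 and 0.40 in both panels.

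Activated cells were set against naive cells in 2 comparisons that share the naive libraries. In div12 against naive, 18 of 30 members rose, against 19.4% of genes, and 5 fell, against 47.5%. The median log2 change was 0.38 over members and -0.35 over all genes. In div0 against naive, 11 members rose, against 15.4% of genes, and 6 fell, against 39.6%, with medians of 0.15 and -0.24. The medians over all genes depend on the scaling, and after median-ratio scaling they were -0.04 and -0.03. With that scaling, 16 members rose and 6 fell in div0 against naive, and with quantile normalization 18 rose and 2 fell. The background moved too, to 1130 genes higher and 1165 lower with median-ratio scaling and to 1273 and 1021 with quantile normalization, against 680 and 1751 in TPM. Without div0 replicate 2, 10 members were called in place of 17.

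Phase II cells were set against div12, the cells they were grown from, in 2 comparisons that share the div12 libraries. In div12_48_u against div12, 3 of 30 members rose (Hspb1, Hspa4l and Dnaja4), against 27.7% of genes, and 16 fell, against 13.6%. The falls covered 4 of 6 ER genes, 10 of 20 cytosolic genes and 2 of 4 mitochondrial genes, with medians of -0.70, -0.32 and -0.22, against 0.16 over all genes tested. Other lists moved in the same comparison: 8 of 12 immediate early genes rose, with a summed level of 2955 and 2770 TPM in div12_48_u, against 564 and 690 TPM in div12, as did the plasma cell markers Sdc1 and Prdm1 and the B cell markers Cd79a, Cd79b and Cd22. Their part in the difference was not tested. After Sdf2l1 the largest falls were those of Hsp90b1 (-0.84 ± 0.07, adjusted p = 0.000168 by limma) and Hspd1 (-0.79 ± 0.10, adjusted p = 0.000823). In div12_48_d against div12, 5 members rose (Hspb1, Hspa4l, Hspa2, Dnaja4 and Hsp90b1), against 11.9% of genes, and 0 fell, against 4.09%, with a median of -0.09 over members and 0.08 over all genes. With median-ratio scaling 4 rose and 4 fell there, and with quantile normalization 3 rose and 1 fell. Over all genes tested, 442 rose and 428 fell with median-ratio scaling and 382 and 362 with quantile normalization, against 525 and 181 in TPM. Leaving out 1 library gave 2 to 5 called members in this comparison, the lowest counts being those without either div12 library or div12_48_d replicate 2.

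Ranked by group means, 14 of the 30 members were highest in div12, 6 in div12_48_d, 4 in naive, 4 in div12_48_u and 2 in div0. At the other end, 13 were lowest in naive and 8 in div12_48_u. The ratio of the highest to the lowest group mean was smallest for Fkbp8, at 1.15, and for the abundant genes it reached 2.26 for Ppia, 2.21 for Hsp90b1, 2.05 for Hspd1 and 2.90 for Sdf2l1.

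Folding genes outside the rule were counted from lists. Of 17 tested genes of ER folding and quality control, 4 rose in div12 against div0 (Canx, P4hb, Manf and Selenos), where 3.68% of all genes rose. In div12_48_d against div12_48_u, 5 rose (those 4 and Calr), where 12.2% of all genes rose. None fell in either. Calnexin, from Canx, and calreticulin, from Calr, are the lectin chaperones that work with Pdia3. Canx was at 342 and 302 TPM in div12_48_d, against 252 and 227 TPM in div12_48_u libraries, and Calr at 1479 and 1265 TPM, against 1006 and 827 TPM. Manf, a secreted cofactor of Hspa5, showed the largest change of the list in that comparison (0.90 ± 0.09, adjusted p = 0.000728 by limma), at 399 and 404 TPM in div12_48_d, against 217 and 214 TPM in div12_48_u libraries. In div12_48_u against div12, Canx, Calr, P4hb, Manf and Selenos fell and Sec63, Syvn1 and Edem3, which act in translocation and degradation, rose. Over all genes, 13.6% fell and 27.7% rose there.

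Regulators of the unfolded protein response were counted in the same way. Of 9 tested (Xbp1, Atf4, Atf6, Ern1, Eif2ak3, Ddit3, Ppp1r15a, Mbtps1 and Wfs1), 0 were called in div12 against div0, and 1, Xbp1, rose in div12_48_d against div12_48_u, counts that are near the background of all genes given above (3.68% and 12.2% higher). All 9 fell in div12 and in div0 against naive, where 47.5% and 39.6% of all genes fell, beside the immediate early genes given above, and 6 rose in div12_48_u against div12, where 27.7% of genes rose. Atf4 was at 615 and 512 TPM in div12 and 535 and 536 TPM in div0, against 1011 and 1001 TPM in naive libraries. The 2 heat shock regulators tested, Hsf1 and Hsf4, fell in div12 and div0 against naive, rose in div12_48_u against div12, and were called in neither division contrast. Hsf1 was at 103 and 79.4 TPM in div12, 117 and 121 TPM in div0 and 164 and 170 TPM in naive libraries. Hsf4 was between 0.717 and 3.17 TPM over all libraries, near the limit of 1 TPM for testing.

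Of 8 tested genes of cytosolic folding outside the rule, 1, Tcp1, rose in div12 against div0 (0.44, adjusted p = 0.036 by limma), where 3.68% of all genes rose. Tcp1 encodes a further TRiC subunit. In div12_48_d against div12_48_u, 3 rose, where 12.2% of all genes rose. These were Tcp1, Stip1 and Cdc37, the last 2 being Hsp90 cochaperones. Tcp1 was at 832 and 842 TPM in div12, against 600 and 632 TPM in div0, and at 755 and 619 TPM in div12_48_d, against 520 and 477 TPM in div12_48_u. Of 9 tested mitochondrial folding and protease genes outside the rule, 0 were called in either division contrast. That count is near the background, as 3.68% and 12.2% of all genes rose there. Against naive, 5 rose in div12 and 3 in div0, where 19.4% and 15.4% of all genes rose.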

How the data were processed

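RNA-seq values were TPM by transcript, as deposited by the authors, for 10 libraries, each summing to 1000000 TPM. Per the submitters' processing notes, HISAT2, Salmon, featureCounts, HTSeq and DESeq2 were used with the build mm10; what each tool did, and whether strand was used, is not given in the sources used here. TPM keeps no read counts, so depth is unknown and neither counting intervals nor a count model could be used. Of 13128 transcripts with values, 63 without a gene symbol were dropped, and summing the other 13065 by symbol gave 6610 genes. The 36 members came from 58 transcripts, 22 members from 1 transcript and 14 from more. Coordinates and promoter windows are RefSeq's on GRCm38.p6.

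limma 3.58.1 (R 4.3.3) was fitted to log2(TPM + 1) of all 10 libraries with group as the only term, a trend of variance with mean, and p-values were adjusted by Benjamini-Hochberg over the 4427 genes that reached 1 TPM in 2 or more libraries (two-sided, threshold 0.05), for 7 contrasts. A pseudocount of 1 understates the change of low genes. The correlation of replicate differences between groups ran from -0.238 (div0 and div12) to 0.199 (div12_48_u and div12_48_d) over 4427 genes. With 2 libraries a group, this cannot show whether same-numbered libraries were paired. The replicate number was not used as a block in the main fit. Tables were made with pandas 2.3.3 and numpy 2.4.6 in Python 3.11.15, and figures with matplotlib 3.10.9.

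Members and lists were chosen with earlier results of these data known. Values per library are given for the 6 most abundant members of each compartment, the 3 largest called rises and falls of each comparison, and a fixed set of well-known chaperones; other members are given by range. From each list of other folding genes, counts and a few called genes are given. Proteins of the members were not analysed here. Alternatives, tried 1 at a time, were quantile normalization or median-ratio scaling, a pseudocount of 5 or 0.1, a filter of 5 TPM or none, no trend, a fit to the compared groups alone, 1 transcript per gene (the most abundant), the replicate block, and omission of each library; a replicate block with the div12 numbers crossed was added after seeing the data.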

Additional observations from a re-analysis of the deposited data

Results flagged for a closer look

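Dnaja4 and Hspa2 are listed because both libraries of the divided group moved 1 way in Phase I and the opposite way in Phase II. Dnaja4 was higher in div12 than in div0 (log2 change 0.36 ± 0.15, adjusted p = 0.17 by limma) and lower in div12_48_d than in div12_48_u (-0.33 ± 0.15, adjusted p = 0.16), a difference between the division contrasts of -0.69 ± 0.22 (adjusted p = 0.29). The opposite direction rests on 1 of its 2 transcripts: with the more abundant one alone, the Phase II change was 0.11 and the difference 0.01 (adjusted p = 0.69 and 1.00). Hspa2 was lower in div12 than in div0 (-0.24 ± 0.21, adjusted p = 0.50) and higher in div12_48_d than in div12_48_u (0.62 ± 0.21, adjusted p = 0.062), a difference of 0.86 ± 0.29 (adjusted p = 0.35). Neither difference passed the threshold, and groups of 2 libraries are too small to search for single outlying samples.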

How the results depend on the processing

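The number of members called in div12 against div0 (13) was 6 without the filter, 7 with quantile normalization, 5 with the compared groups alone, 3 without the trend, 8 when genes were represented by their most abundant transcript, and 0 to 14 when 1 library was left out; 6 were called without either div12_48_u library. Whether same-numbered libraries were paired could not be decided from the check above. With the replicate block 8 were called, and with the div12 numbers crossed, a pairing added after seeing the data, 11. In div12_48_d against div12_48_u (15), 9 were called with the compared groups alone and 3 to 18 with 1 library left out. In div12_48_d against div12 (5), 8 were called with median-ratio scaling, 3 with the compared groups alone and 2 to 5 with 1 library left out. In div0 against naive (17) the range was 10 to 17, in div12 against naive (23) 19 to 23, in div12_48_u against div12 (19) 15 to 20, and for the difference of the division contrasts 0 to 0. With quantile normalization, 4 values against naive reversed: Dnaja4 in div0 to 0.71 (adjusted p = 0.0044), Hsp90b1 in div0 to 0.23 (adjusted p = 0.010), and Hspa12a to 0.056 in div0 and 0.053 in div12 (adjusted p = 0.85 in each); the cause was not tested. With the most abundant transcript, Dnaja4 in div12_48_d against div12_48_u, which was not called, turned to 0.11. Depth is unknown, and with 2 libraries a group, small changes of low genes such as Fkbp6 could not be resolved.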

Other observations

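The table lists Hspa5 as 2 transcripts, which held 83.1% and 16.9% of its mean TPM over all libraries. In naive replicate 1 they were at 1072 and 143 TPM, and in naive replicate 2 at 666 and 293 TPM. In the other 8 libraries the more abundant transcript was between 470 and 878 TPM and the other between 66.7 and 150 TPM.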
